A study of Bos taurus with 4 samples.

Results

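The genes described here encode the enzymes that attach ubiquitin to proteins and the proteases that take it off. They were chosen by name only: every gene whose current RefSeq symbol begins with UBE2, with UBA or USP followed by a digit, or with UCHL or OTUD. The RefSeq table of cattle holds 102 such symbols, and 40 of these genes had at least 1 probe that could be named on the array, among 7788 named genes in all. All 40 had a probe that passed the filter on dim signals, as did 6376 of all named genes. By function 22 of them belong to conjugation and 17 to removal, and 1 takes no part in either. USP39 is counted with removal by its name, although it is known as an inactive protease. Each of the 4 two-colour arrays carried cRNA, labelled copies of the total RNA, of m. semitendinosus (a hind limb muscle) from 1 bull of the beef breed Limousin (LIM), labelled with the red dye Cy5, and from 1 bull of the dairy breed Holstein-Friesian (HF), labelled with the green dye Cy3. All bulls were 15 months old, the labels name no treatment, and each array holds a different pair of animals. The red channel was LIM on every array, so that breed and dye cannot be told apart. In bulk muscle fewer cells of a type and less RNA per cell cannot be told apart either.

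Ubiquitin is a small protein that is joined to other proteins stepwise. An activating enzyme (E1) charges it with ATP, a conjugating enzyme (E2) takes it over, and a ligase (E3) places it on the target, singly or as a chain. Some E1 and E2 enzymes carry ubiquitin-like proteins instead, such as SUMO or the interferon-induced ISG15. Deubiquitinases cut ubiquitin off again; the ubiquitin-specific proteases (USP), the ubiquitin C-terminal hydrolases (UCHL) and the OTU proteases (OTUD) are families of them. In skeletal muscle the chains steer myofibrillar proteins to the proteasome, and wasting muscle is known for a rise of muscle-specific E3 ligases.

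Most of these genes differed little between the channels. The mean log2 ratio, LIM over HF, lay between -0.56 and 0.91 over the 40 genes, and in 3 of 40 (7.5%) it was larger than 0.5 in size, against 10.5% of all named genes. The median size of the mean ratio, sign set aside, was 0.19 over the 40 genes and 0.15 over all named genes. After adjustment over all 15856 kept probes (limma, Benjamini-Hochberg, adjusted p under 0.05) 2 of the 40 genes passed, both of them deubiquitinases. USP38 was higher in the LIM channel, and USP8 was lower there after the loess normalization used here but above 0 when arrays were centred on their median instead. The background of such calls was 5.47% of all probes (867) and 5.93% of named genes, 2.78% higher and 3.15% lower, so that 2 of 40 is close to what the array as a whole gave. No conjugation gene passed in limma, and 7 of 22 (31.8%) had an unadjusted p under 0.05, beside 28.9% of named genes. Directions follow the dye labels, and for UBE2E3 and the ligase TRIM63, which the study names among its changed genes, the direction here is the opposite of the one the study gives. Neither gene passed here in limma (adjusted p = 0.0676 and 0.0625). The study's changed genes were those that differed from HF alike in LIM and in the beef breed Hereford. It checked the directions of 7 other genes by qPCR and the protein of myostatin by Western blot. Directions also rest on the normalization: with each array centred on its median in place of loess, the median of all named genes was 0.35, 36 of the 40 genes were above 0 and 15 of the 40 changed sign, USP8, UCHL3 and UBE2T among them.

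**Figure D1:**
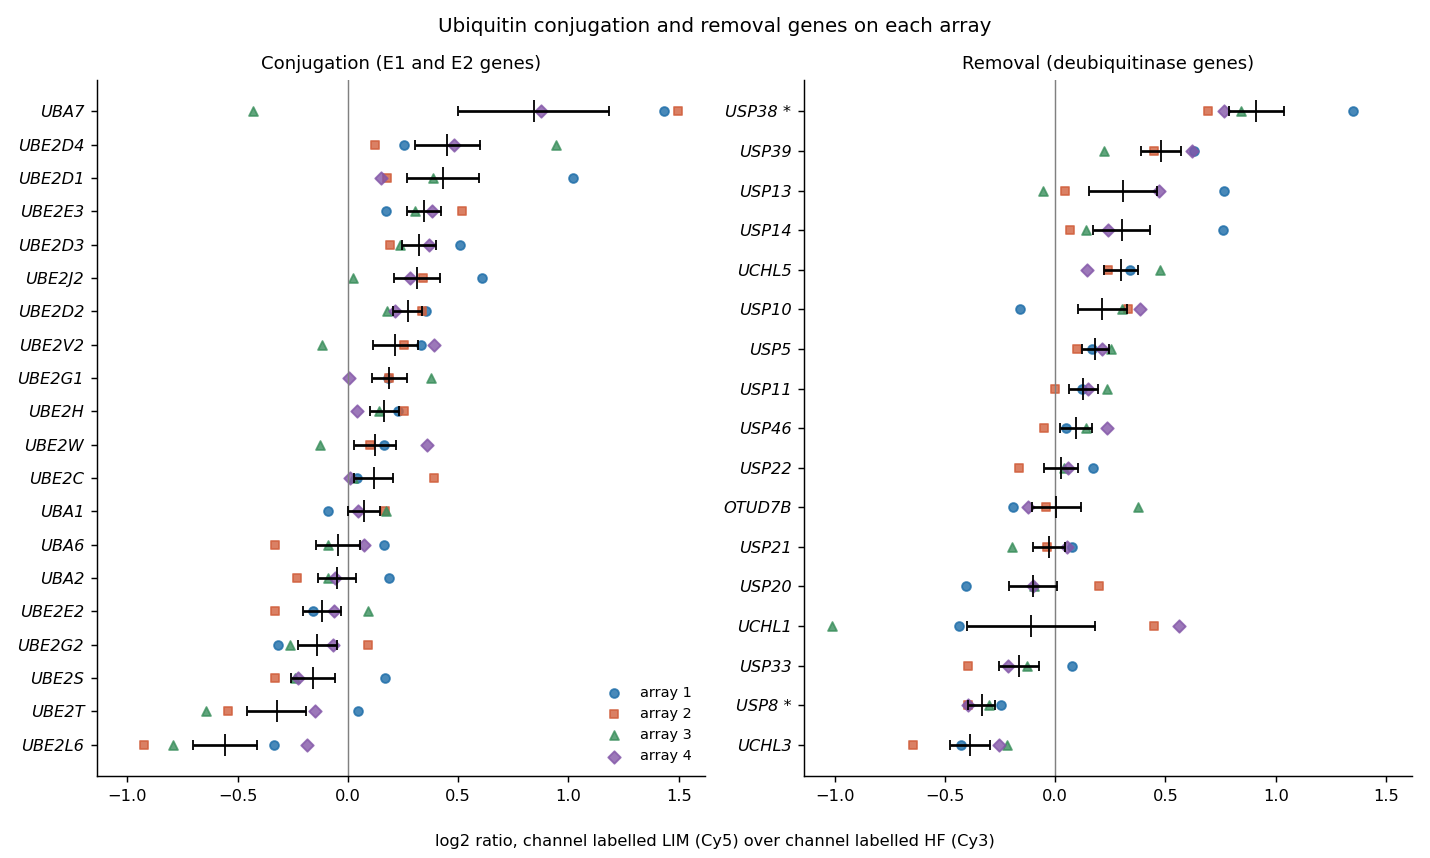
Log2 ratio, LIM (Cy5) over HF (Cy3), of 37 of the 40 genes on each of the 4 arrays (coloured symbols), with the mean and its standard error from limma (black bars, n = 4 arrays); an asterisk marks an adjusted p under 0.05. USP38 is to the right of 0 on every array and USP8 to the left, while most genes lie within 0.5 of 0. When arrays were centred on their median, the mean ratio of USP8 was above 0.

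USP38, a protease known for trimming ubiquitin chains in interferon signalling, showed the largest mean ratio of the 40 genes. Its normalized log2 signal was 11.63, 11.29, 11.67 and 11.62 in the LIM channels of arrays 1 to 4, and 10.28, 10.60, 10.83 and 10.86 in the HF channels. The lowest LIM value thus lay above the highest HF value. The log2 ratio was 1.35, 0.69, 0.84 and 0.77, with a mean of 0.91 ± 0.13 (SE, n = 4 arrays), which is a fold of 1.88 (adjusted p = 0.0313). Array 1 had the largest ratio, through the lowest HF signal. Without array 1 the mean was 0.77, and with any 1 of the 4 arrays left out the gene no longer passed (adjusted p between 0.0544 and 0.106).

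USP8 works at the endosome, where it takes ubiquitin off internalized receptors such as the epidermal growth factor receptor. Its signal was 9.02, 9.13, 9.13 and 9.14 in the LIM channels and 9.27, 9.53, 9.43 and 9.53 in the HF channels. The groups did not overlap, and the LIM values were nearly the same in all 4 bulls. The log2 ratio was -0.24, -0.40, -0.30 and -0.40, and the mean of -0.33 ± 0.06 (SE, n = 4) corresponds to 1.26-fold more in the HF channel (adjusted p = 0.0490). The direction is that of the loess values: with each array centred on its median the ratio of USP8 was 0.19. With 1 array left out at a time the mean ranged from -0.36 to -0.31 and did not pass (adjusted p between 0.0898 and 0.163).

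USP39 was the member just outside the threshold. It belongs to the USP family by sequence but lacks protease activity and serves in the spliceosome. Its log2 ratio was 0.63, 0.45, 0.22 and 0.62, with a mean of 0.48 ± 0.09 (SE, n = 4; adjusted p = 0.0505). The LIM signals, 11.34 to 11.52, lay above the HF signals, 10.72 to 11.30. When the test was limited to probes with a clear signal in both dyes on each array, USP39 passed (adjusted p = 0.0463) and USP8 did not (adjusted p = 0.0608).

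**Figure D2:**
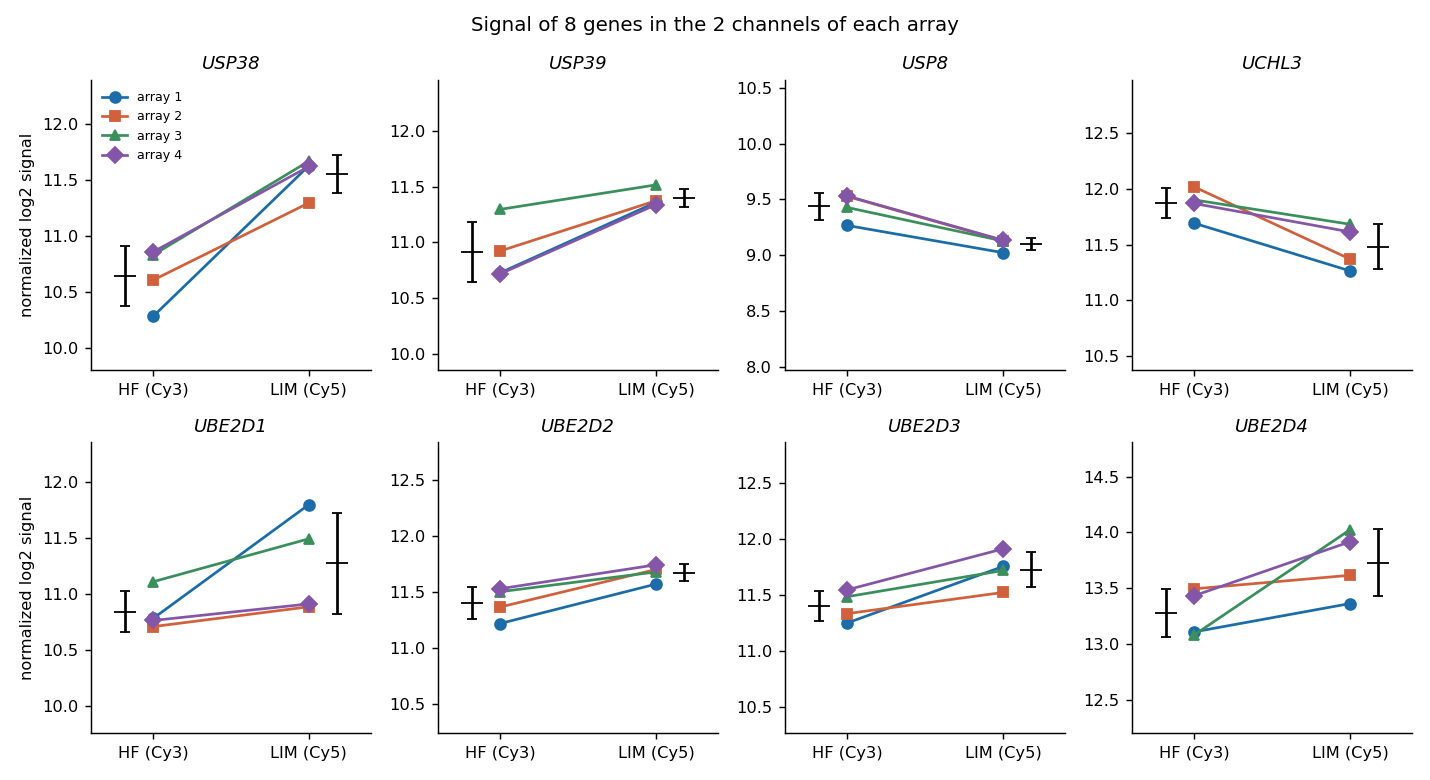
Normalized log2 signal (y axis, each panel spanning the same range of log2 units) of 8 genes in the HF (Cy3) and LIM (Cy5) channels, with a line joining the channels of each array and black bars for the mean ± SD (n = 4). USP38, USP39 and the UBE2D genes are higher in the LIM channel on every array, and USP8 and UCHL3 are lower there on every array. When arrays were centred on their median, the mean ratios of USP8 and UCHL3 were above 0. Among the 8 genes only USP38 and USP8 passed the test.

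Among the activating enzymes no gene passed. UBA1, the main E1 of ubiquitin, had a log2 ratio of 0.07 ± 0.07 (SE, n = 4; 95% interval -0.11 to 0.26), and its other kept probe gave -0.14. UBA6, which activates ubiquitin and the related FAT10, had a ratio of -0.04 ± 0.10. UBA2, a part of the E1 of SUMO, was at -0.05. These 3 genes had ratios of either sign on the 4 arrays, and their means lay within 1 standard error of 0 or little beyond it.

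UBA7, the E1 of ISG15, stood apart by its spread as well as by its mean. Its log2 ratio was 1.43 on array 1, 1.49 on array 2, -0.43 on array 3 and 0.88 on array 4. The signal was 7.76 to 8.33 in the 4 HF channels and 7.81 to 9.76 in the LIM channels, so that the spread lay among the LIM bulls and the groups overlapped. The mean of 0.84 ± 0.34 (SE, n = 4) did not pass (adjusted p = 0.192). ISG15 itself, which is no member, had ratios of 2.16, 2.84, -1.09 and 0.86, the same order of the arrays as UBA7, and a mean of 1.19 that did not pass either (adjusted p = 0.309).

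UBE2L6, the E2 that takes ISG15 from UBA7, did not follow that order. Its log2 ratio was -0.33, -0.92, -0.79 and -0.18, below 0 on all 4 arrays. The LIM signals, 8.24 to 8.93, lay below the HF signals, 8.96 to 9.17. The mean of -0.56 ± 0.15 (SE, n = 4) was the lowest of the 40 genes, and it did not pass (adjusted p = 0.0875). With each array centred on its median the ratio of UBE2L6 was -0.08.

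The UBE2D enzymes are general E2s that serve many ligases, among them the muscle ligase TRIM63, and all 4 genes of the family were measured. All 4 were above 0 on all 4 arrays, and none passed the test. UBE2D1 had log2 ratios of 1.02, 0.18, 0.38 and 0.15, with a mean of 0.43 ± 0.16 (SE, n = 4; adjusted p = 0.168). UBE2D2 had the narrowest spread, with 0.35, 0.34, 0.18 and 0.21 and a mean of 0.27 ± 0.06 (adjusted p = 0.0742). Its LIM signals, 11.57 to 11.74, lay above its HF signals, 11.22 to 11.53. UBE2D3 had ratios of 0.51, 0.19, 0.23 and 0.37 and a mean of 0.32 ± 0.08 (adjusted p = 0.0743), and UBE2D4 had 0.25, 0.12, 0.94 and 0.48 and a mean of 0.45 ± 0.15 (adjusted p = 0.132). The array with the largest ratio differed within the family: array 1 for UBE2D1, UBE2D2 and UBE2D3, and array 3 for UBE2D4. The coding sequences of these paralogs are alike, and whether a probe of one also binds another was not tested here.

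UBE2E3, an E2 known for its import into the nucleus once it is charged with ubiquitin, had log2 ratios of 0.17, 0.52, 0.31 and 0.38 and a mean of 0.34 ± 0.08 (SE, n = 4; adjusted p = 0.0676). It was above 0 on every array, while its LIM signals, 8.20 to 8.57, overlapped with its HF signals, which reached 8.27. Its paralog UBE2E2 had a mean of -0.12 ± 0.09, with 1 array above 0.

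The E2s of protein quality control at the endoplasmic reticulum gave both signs. UBE2J2, which is anchored in the membrane of the reticulum, had ratios of 0.61, 0.34, 0.03 and 0.28 and a mean of 0.31 ± 0.11 (SE, n = 4; adjusted p = 0.139). UBE2G2, which works with membrane ligases of the same pathway, had a mean of -0.14 ± 0.09 on the brighter probe and 0.07 on the other, and neither passed. UBE2G1, its cytosolic relative, had a mean of 0.19 ± 0.08 and was above 0 on all 4 arrays, by 0.005 on array 4 (adjusted p = 0.206).

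Of the remaining conjugation genes, those known from dividing cells were UBE2C, UBE2S and UBE2T. UBE2C, which starts chains for the anaphase-promoting complex, was not well above background in the HF channel of any array. It was above background in all 4 LIM channels and did not pass (adjusted p = 0.452), and no fold is given for it. UBE2S, which lengthens those chains, had a mean of -0.16 ± 0.10, and UBE2T, the E2 of the Fanconi anaemia pathway, had -0.32 ± 0.13 (adjusted p = 0.201). Both were below 0 on arrays 2 to 4 and above 0 on array 1. UBE2H, the E2 of the CTLH ligase complex, had a mean of 0.16 ± 0.07 and was above 0 on all 4 arrays (adjusted p = 0.187). UBE2W, which marks the amino terminus of its targets, had 0.12, and UBE2V2, a partner of UBE2N without catalytic cysteine, had 0.21, both with array 3 below 0.

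Of the deubiquitinases, USP14 and UCHL5 are bound to the proteasome and trim chains there. UCHL5 had log2 ratios of 0.34, 0.24, 0.48 and 0.14 and a mean of 0.30 ± 0.08 (SE, n = 4; adjusted p = 0.0859). USP14 had ratios of 0.76, 0.07, 0.14 and 0.24 and a mean of 0.30 ± 0.13 (adjusted p = 0.215), which was 0.15 without array 1. The means were alike, but that of USP14 came largely from array 1. The third protease of the particle, PSMD14, is no member by name and had ratios of 1.34, 0.05, 0.14 and 0.89 (mean 0.60 ± 0.24, adjusted p = 0.187).

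UCHL3, which releases ubiquitin and NEDD8 from their precursors, was the removal gene with the lowest ratio. Its log2 ratio was -0.43, -0.65, -0.22 and -0.25, with a mean of -0.39 ± 0.09 (SE, n = 4; adjusted p = 0.0749), and it was 0.26 with arrays centred on their median. The LIM signals, 11.26 to 11.68, lay just below the HF signals, 11.69 to 12.02. UCHL1, a hydrolase best known from neurons, had ratios of -0.44, 0.45, -1.01 and 0.56 and thus no common direction (mean -0.11 ± 0.29, 95% interval -0.84 to 0.62).

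USP5 and USP13 are close relatives, and USP5 takes apart free ubiquitin chains. USP5 had ratios of 0.17, 0.10, 0.25 and 0.21, and a mean of 0.18 ± 0.06 (SE, n = 4; adjusted p = 0.134). USP13 had 0.76, 0.05, -0.06 and 0.47 and a mean of 0.31 ± 0.15 (adjusted p = 0.274). USP5 had the narrowest spread between arrays of the removal genes (SD 0.07), and the SD of USP13 was 0.38.

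The other removal genes had means between -0.16 and 0.21, and none of them passed. USP22, the deubiquitinase of the SAGA coactivator complex, had a mean of 0.03 ± 0.08 (SE, n = 4; 95% interval -0.17 to 0.22), and USP21, which acts on histones as well, had -0.03. USP20 and USP33, paralogs first described as partners of the von Hippel-Lindau protein, had -0.10 and -0.16, and the other probe of USP33 gave -0.07. USP10, which deubiquitinates p53, had 0.21, with array 1 at -0.16 and the other 3 arrays between 0.31 and 0.38. USP11 had 0.13, and OTUD7B, the only measured OTUD gene and a protease of atypical chains, had 0.01. USP46 was not well above background in any HF channel, and no fold is given for it.

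**Figure D3:**
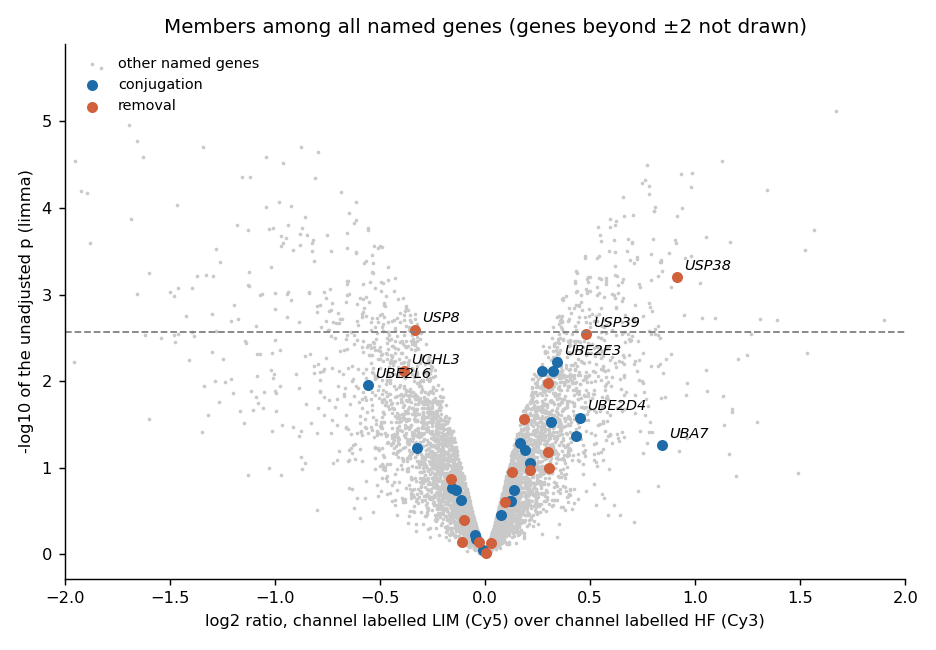
Mean log2 ratio (x axis) against -log10 of the unadjusted limma p (y axis) for the 39 conjugation and removal genes (coloured) and all other named genes (grey); the dashed line marks the largest p with an adjusted p under 0.05, and 17 named genes beyond 2 on the x axis are not drawn. USP38 and USP8 lie above the line and USP39 just below it.

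Below the threshold of the adjusted p the genes were more often above 0 than below it. At an unadjusted p under 0.05 there were 14 of 40 (35%), 10 higher and 4 lower. The background was 28.9% of named genes, with 911 higher and 931 lower of 6376. Above 0 on all 4 arrays were 14 of 40 (35%), against 18.7% of named genes, with UBE2C among the 14. Below 0 on all 4 arrays were 3 of 40 (UBE2L6, UCHL3 and USP8), against 17.5%. With arrays centred on their median the means of UCHL3 and USP8 were above 0, and that of UBE2L6 was -0.08. The mean was above 0 in 25 of 40 genes (62.5%) and in 50.5% of named genes. The median of the means was 0.12 over the 40 genes and 0.003 over all named genes. Over the 38 genes with a signal above background for both breeds on each array, which leaves out UBE2C and USP46, 13 (34.2%) were above 0 on all 4 arrays, against 18.1% of the 5435 named genes chosen in the same way. These counts are descriptions without a test, and arrays differed in them: 30, 24, 21 and 28 of the 40 genes were above 0 on arrays 1 to 4. The SD between arrays had a median of 0.19 over the 40 genes and of 0.21 over all named genes.

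Conjugation and removal were then set against each other. The median log2 ratio was 0.13 over the 22 conjugation genes and 0.09 over the 17 removal genes, and 14 and 11 of them had a mean above 0. The removal median is the ratio of USP46, whose HF signal was not above background; without UBE2C and USP46 the medians were 0.14 over 21 genes and 0.08 over 16. On the single arrays the conjugation median was 0.18, 0.16, -0.006 and 0.05, and the removal median was 0.08, 0.05, 0.14 and 0.15. The conjugation median minus the removal median was therefore 0.10 and 0.11 on arrays 1 and 2 and -0.14 and -0.10 on arrays 3 and 4. The difference changed its sign between pairs of bulls, and the difference of the medians of the means, 0.04, was smaller than its SD over the arrays, 0.13. Above 0 on all 4 arrays were 9 of 22 conjugation genes (40.9%) and 5 of 17 removal genes (29.4%).

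**Figure D4:**
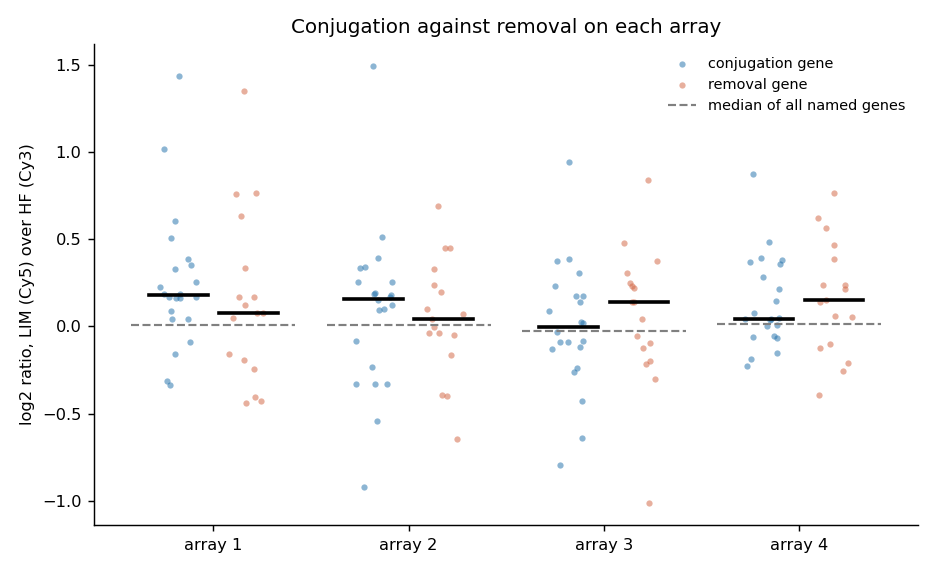
Log2 ratio, LIM (Cy5) over HF (Cy3), of the 22 conjugation genes and the 17 removal genes on each array, with the median of each role (black lines) and of all named genes (dashed lines). The conjugation median is above the removal median on arrays 1 and 2 and below it on arrays 3 and 4.

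Across the 40 genes, the ratios of any 2 arrays correlated with Pearson's r between 0.33 (arrays 3 and 4) and 0.81 (arrays 2 and 4). Over all 6376 named genes r lay between 0.40 and 0.59. The genes share the arrays and the dye orientation, so that these values are a description of the arrays and not evidence from independent samples.

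The genes that act around these enzymes showed few calls as well. Of 37 genes listed as E3 ligases of muscle, 14 had a kept probe and the others were not measured. Of these 14 ligases, 1 was higher and 0 were lower, where 2.78% and 3.15% of all named genes were. MDM2, the ligase of p53, was the one that passed, with log2 ratios of 0.65, 0.44, 0.47 and 0.94 and a mean of 0.62 ± 0.10 (SE, n = 4; adjusted p = 0.0405). TRIM63, the atrophy ligase also called MuRF1, had -1.49, -1.54, -0.28 and -0.97 (mean -1.07 ± 0.23, adjusted p = 0.0625), and TRIM32 had a mean of -0.47 (adjusted p = 0.0655). Both were below 0 on all 4 arrays without passing, and with median centring TRIM63 was at -0.40 and TRIM32 at 0.05. The median of the 14 ligases was 0.01, and 7 of them had a mean above 0. MUL1 is among these 7, and its HF channel was not well above background on any array.

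Of 25 genes listed as deubiquitinases outside the naming rule, 15 had a kept probe, COPS5 and EIF3H among them. None of these 15 passed in limma. Their median was -0.14, the ratio of COPS5, which was 0.53 with median centring. PSMD14 is both in this list and among the proteasome subunits. JOSD1, a Josephin protease at the plasma membrane, had -0.21, -1.34, -1.17 and -1.18 (mean -0.97 ± 0.20, adjusted p = 0.0603), and MINDY1, which trims long chains, had a mean of -0.51 (adjusted p = 0.0936) that was 0.09 with median centring. Of 32 listed proteasome subunits 26 had a kept probe. None of these 26 passed in limma either, and their median was 0.12. That median was 0.62 on array 1 and between -0.05 and 0.21 on the other arrays. PSMA5, a subunit of the outer ring of the core, came closest, with 1.13, 0.61, 0.42 and 0.51 and a mean of 0.67 ± 0.13 (adjusted p = 0.0548). At an unadjusted p under 0.05 were 5 of the 14 ligases, 7 of the 15 genes listed as deubiquitinases and 6 of the 26 subunits, beside 28.9% of all named genes. Of 27 listed genes of the ubiquitin-like modifiers 17 had a kept probe. None of these 17 passed in limma, and 1, the SUMO ligase PIAS3 with a mean of 0.50 (adjusted p = 0.0846), had an unadjusted p under 0.05.

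The label of the tissue was checked against 8 measured markers of muscle fibres, and all 8 had a signal well above background for both breeds on each array. One of them was higher in the LIM channel, MB (myoglobin), with a mean of 1.02 ± 0.15 (SE, n = 4; adjusted p = 0.0325), while TNNC1 and MYH7, genes of slow fibres, had -1.12 and -1.06 and did not pass (adjusted p = 0.0945 and 0.116). Of 6 fibroblast markers 1 was higher, COL3A1, with a mean of 2.53 ± 0.44 (adjusted p = 0.0440). LUM, COL1A1 and COL1A2 were above 0 as well without passing, while DCN and PDGFRA had means of -0.23 and -0.27, which were above 0 with median centring. The summed signal of the 6 was 14.47 to 15.39 on the log2 scale in the LIM channels and 13.48 to 14.58 in the HF channels, which overlap. Their median ratio was 0.19, 0.71, 1.59 and 1.01 on arrays 1 to 4. The 3 macrophage markers had a median of -0.49 and none passed. Their summed log2 signal was 9.96 to 10.56 in the LIM channels and 10.34 to 11.48 in the HF channels. No measured marker of endothelium (1), adipocytes (2), lymphocytes (4) or erythrocytes (2) passed. None of the measured fibroblast and macrophage markers was below background, and the part of these cell types in the ratios of the 40 genes was not tested.

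**Figure D5:**
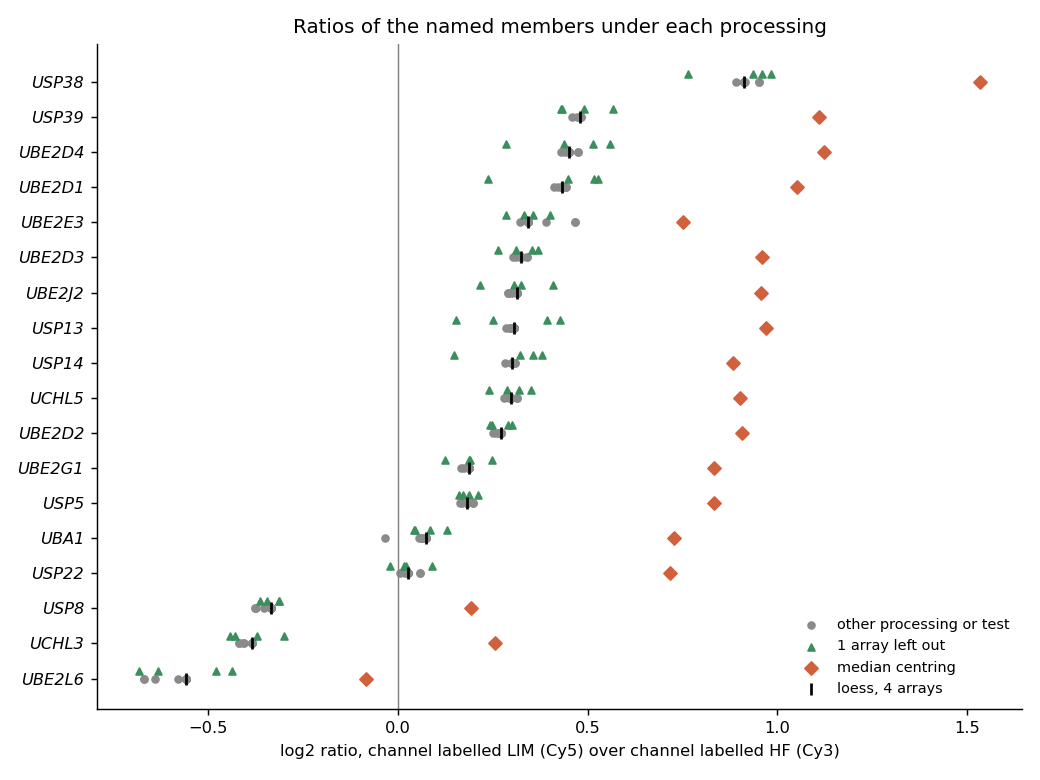
Log2 ratio of 18 of the 40 genes with loess on 4 arrays (black bars), under the other processing and tests (grey), with 1 array left out (green) and with each array centred on its median (orange). The orange symbols lie to the right of the others for all 18 genes and place USP8 and UCHL3 above 0.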

How the data were processed

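Values come from 4 Agilent two-colour bovine arrays scanned on 1 slide. The deposited files hold the scanner's spot signals, an intensity per spot and dye that the authors' Feature Extraction software had read, and a log10 ratio of red over green, which the deposited series table repeats. Here median signals were corrected with normexp (offset 50) and normalized by loess within arrays in limma 3.58.1 (R 4.3.3), controls and non-uniform spots having weight 0, and turned into log2 ratios; log2 signals of single channels were scaled with Aquantile. Of 42990 bovine spots per array, 32513 to 33527 were well above background in the LIM and 27102 to 28769 in the HF channel, and none was saturated. A probe was kept if 1 dye was above background on 3 or more arrays (15856 of 21475). RefSeq accessions gave 8297 probes a symbol, updated through a RefSeq table of assembly ARS-UCD2.0; probes with other identifiers are not analysed here. The brightest kept probe stood for a gene. Mean ratios were tested against 0 (lmFit, eBayes, two-sided) with Benjamini-Hochberg adjustment over all kept probes, and the procedure was tested on simulated data. Only 4 arrays limit the precision. All arrays share 1 slide and dye orientation, so that no batch or dye term could be fitted. For a gene below background in 1 channel on every array no fold is given. Members and gene lists were chosen with earlier results of these data known. Members passing the test were chosen for fuller description. So were up to 8 conjugation and 8 removal genes with the largest ratio of 1 sign on all arrays. The 3 brightest of each role, genes known from the proteasome or muscle and up to 4 genes of each companion list were added. Some of these, such as UBA1, UBE2G1 and USP22, are given mainly by their means. The rest are given briefly, except UBA7 and UCHL1, which are given by array. The genes USP53, USP19, USP25, UBE2B, UBE2L3 and UBE2J1 were not analysed here, and 3 members are in the counts but not reported singly. Alternatives were other background corrections, the deposited ratios, other centring, other filters, another variance model, the methods' t-test, the mean of a gene's probes and leaving out each array.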

Additional observations from a re-analysis of the deposited data

Results flagged for a closer look

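In 2 of the 40 genes 1 array lay far from the other 3: its gap to the nearest of them, divided by the range over all 4, was above Dixon's critical value. For UBE2C this ratio was 0.917, with array 2 the highest; its HF channel was not well above background on any array, so that its ratios have no measured size. For USP10 it was 0.855, with array 1 at -0.16 and the others between 0.31 and 0.38. Chance gives about 1 in 20 such genes, which is 2 of 40.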

How the results depend on the processing

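The count of members called was 2 and depended on the processing. It was 1 (USP38) with the scanner's processed signals, with the series table, with an offset of 10 and with an intensity trend and robust prior. Of all 15856 kept probes these settings called 1336, 1339, 1201 and 1308. The count was 0 by the methods' t-test after Benjamini-Hochberg, which called 1 probe in all. At the methods' own thresholds (p of 0.05, fold of 1.3) that test gave 3 (USP38, USP39 and UCHL3). Over all probes it called 1479 of 15856 at those thresholds. With 1 array left out the count was between 0 and 0, and over all probes it was 51 without array 3 and 0 without any other. With median centring it was 18, all higher, as 3525 of 3800 calls over all probes were. That setting moved the median of all kept probes from 0.02 to 0.25, the conjugation median to 0.62 and the removal median to 0.71, and their difference to -0.096 (which was also below 0, -0.0097, without array 2). In that setting the median of all named genes moved as well, from 0.003 to 0.35, which is less than the medians of the 2 roles moved. Among the 18 genes followed through all settings, those whose sign changed with it were USP8 (0.19) and UCHL3 (0.26). The ratio of UBA1 was -0.034 as the mean of its probes and that of USP22 was between -0.021 and 0.090 with 1 array left out, below 0 without array 1. In the other settings the conjugation and removal medians stayed within their SD over arrays. USP38 passed in 10 of 15 alternatives, USP8 in 3 and USP39 in 3. These alternatives overlap and are not separate tests. The series table repeats the scanner's ratios, and several settings kept the loess ratio and changed only the filter or the test. For USP38 and USP39 the passes include the methods' own thresholds, which use an unadjusted p. USP8 passed only with centring on kept probes, without the filter on dim probes and with the mean of a gene's probes. Of the values of 18 genes under 15 alternatives, 235 kept direction and side of the threshold. The cause of these changes was not tested. The arrays form 1 group, and each ratio pairs 1 LIM bull with 1 HF bull, so that the test against 0 is already paired. Signals near background limit UBE2C and USP46.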
